A study of Mus musculus with 12 samples.

Results

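The tRNAs described here are those for glycine, glutamate, valine, histidine, lysine and aspartate. Their 5′ fragments, made by a cut in the anticodon loop, are known to be stable. These tRNAs are every row of class tRNA named for 1 of the 6 amino acids in a count table of small non-coding RNAs. Rows of identical counts were kept once. This gave 68 distinct rows of 277 distinct tRNA rows and 4227 distinct rows in all, from 141 of 4645 deposited rows. The rule used names only and no measured level, but it was chosen with earlier results of these data known.

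The libraries are of small RNA from hippocampal area CA1, dissected from C57BL/6J mice 3 to 5 months old. All mice carried Kat2a fl/fl, floxed alleles of a histone acetyltransferase gene. The 6 Control libraries came from Kat2a fl/fl mice, and the 6 Kat2a cKO libraries from mice of genotype Kat2a fl/fl with CamKIIα-cre+, a Cre driven in forebrain excitatory neurons. The comparison asks which of these tRNA reads differ when Kat2a is deleted from such neurons. In bulk tissue fewer cells of a type and less RNA per cell cannot be told apart. Nothing in the labels says how many mice gave each library, so p-values measure only the spread between these libraries.

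Mature tRNAs carry amino acids to the ribosome. Ribonucleases such as angiogenin can cut them in the anticodon loop, which leaves a 5′ and a 3′ fragment, and cytosine methylation by the enzymes of Trdmt1 and Nsun2 protects tRNAs from this cut. Such 5′ fragments of tRNA-Gly, tRNA-Glu and tRNA-Val are known from serum, sperm and stressed cells, and those of tRNA-His, tRNA-Lys and tRNA-Asp from hormone-dependent human cancer cell lines. The table gives 1 read total per annotated tRNA and library, with no read start or length. The values are therefore reads on these tRNAs, and fragments cut at the anticodon, shorter pieces and whole tRNAs cannot be told apart in them. Per the labels' protocols a gel band of 150 bp was cut for the libraries, and the insert length that this band left is not given in the sources used here.

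Reads in distinct rows of the table numbered 1429765 to 5726590 per library, with the fewest in Control 2 and cKO 1. Kat2a, in a table of all RNAs whose libraries are known by group only, had 23 reads in Control (0 to 8 per library) and 13 in cKO (0 to 5). At this depth its loss was not detectable. All 8 genes listed for CA1 excitatory neurons had reads, 379 in Control and 492 in cKO, among them the CA1 marker Wfs1 and the excitatory markers Camk2a and Slc17a7. Libraries of a group differed from each other by more than sampling noise, so none was counted as a duplicate.

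Most tRNA reads belonged to these 6 amino acids. They held 94.2 ± 1.20% of the reads in distinct tRNA rows in Control and 94.0 ± 0.636% in cKO (SD, n = 6 each), with a range of 93.0% to 95.9% over the 12 libraries. All distinct tRNA rows together held 23.0 ± 6.00% of the table in Control and 25.4 ± 6.08% in cKO. Of the 50 distinct rows with most reads in the table, 17 were rows of these 6 tRNAs. All 17 were of tRNA-Gly, tRNA-Val or tRNA-Glu, and several of them have nearly the same counts. The rows with most reads of tRNA-Lys, tRNA-His and tRNA-Asp ranked 66, 114 and 128.

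Those 68 rows are not 68 separate measurements. As deposited, 94 of the 141 rows fell into 21 sets of identical counts, the largest being 13 copies of tRNA-Asp, 9 of tRNA-Glu, and 8 each of tRNA-Gly and tRNA-His. The deposited rows lay on 18 chromosomes, with 26 on chromosome 1, 23 on chromosome 3 and 22 on chromosome 13. Of the 25 tRNA-Val rows 10 were on chromosome 13. The genome build behind the row names is not given in the sources used here, so no coordinates are printed.

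The distinct rows with most reads of an amino acid also had nearly the same counts. Rows are numbered here by total reads within the amino acid, so that Gly-1 is the tRNA-Gly row with most. Gly-2, picked with Gly-8 and Gly-10 after the values were seen, had 0 to 8 fewer reads than Gly-1 in each library, 43 in all of 763280. The Gly-8 row held 47.4% to 72.3% of the reads of Gly-1, whereas Gly-12 held 1.46% to 4.22%. Val-1 and Val-2 differed by 598 reads in all, or 0.181% of Val-1. How a read that fits several copies was assigned is not given, so which copy a read came from is uncertain, and sums over rows may count reads more than once. For this reason each amino acid is described first by its row with most reads.

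Row lengths, as the row names give them, separate the tRNA-Gly copies into kinds. Gly-1 to Gly-8, Gly-12 and Gly-13 are 71 bases long, and Gly-9 to Gly-11 are 72. In RefSeq (GRCm38.p6) the 14 tRNA-Gly genes with anticodon GCC and the 6 with CCC are 71 bases long, and the 7 with TCC are 72. The row names give no anticodon and rows were not matched to genes by position. In the same way all tRNA-Glu and tRNA-Asp rows are 72 bases long and all tRNA-Lys rows 73, so that levels of the rows with most reads compare tRNAs of nearly equal length.

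tRNA-Gly had the most reads of any tRNA name in all 12 libraries. Counting each of the 21 tRNA names by its row with most reads, Gly-1 held 44.7 ± 10.8% of these reads in Control and 43.3 ± 5.88% in cKO (SD, n = 6 each). Its share ran from 29.4% in Control 1 to 58.2% in Control 5, so it varied more among Control libraries than between the groups. tRNA-Lys came directly after tRNA-Gly, tRNA-Val and tRNA-Glu in all 12 libraries, at 4.74% to 8.61%.

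tRNA-Val and tRNA-Glu exchanged the second and the third place. tRNA-Val held 18.7 ± 5.98% in Control and 21.6 ± 5.00% in cKO, and tRNA-Glu 20.3 ± 4.12% and 18.2 ± 3.83%. Val-1 was above Glu-1 in 8 libraries, and Glu-1 was above Val-1 in 3 Control libraries and 1 cKO library. The order of these neighbours therefore did not hold beyond the spread between libraries.

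tRNA-His and tRNA-Asp were far lower. tRNA-His held 1.85 ± 0.592% in Control and 1.76 ± 0.461% in cKO, and tRNA-Asp 1.92 ± 0.478% and 1.602 ± 0.299%. Among the 21 names they ranked from 5 to 8 and from 5 to 9. tRNA-Gln, which had the most reads of the other names, lay below tRNA-His in 8 libraries and below tRNA-Asp in 7. Above every name outside the 6, tRNA-His lay in 5 libraries and tRNA-Asp in 5. Read counts alone thus set 4 of these 6 tRNAs above every other tRNA name in all 12 libraries, but not tRNA-His and tRNA-Asp.

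**Figure D1:**
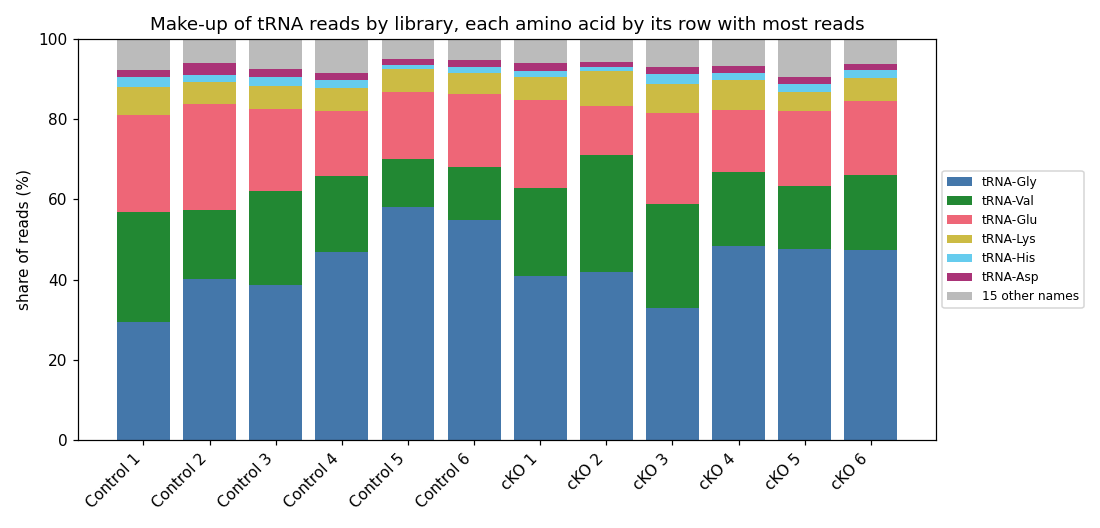
Stacked bars give, for each library, the share in percent (y axis) of each amino acid in the tRNA reads when every tRNA name is counted by its row with most reads. The Gly-1 share runs from 29.4% to 58.2%, and the 15 other names hold what the 6 amino acids leave.

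Against the background of the whole table, no row passed the test of cKO against Control. The 61 rows of the 6 tRNAs that passed the filter on low counts, of 68, were fitted with all 860 such rows of the table (edgeR quasi-likelihood test, two-sided, adjusted over all 860). At an adjusted p under 0.05 the test called 0 of the 61 and 0% of all rows. At an unadjusted p under 0.05 it held 11 of the 61, or 18.0%, against 6.51% of all rows and 22 of the 159 tested rows of other tRNAs (13.8%). Those 11 were 6 rows of tRNA-Val, 4 of tRNA-Lys and 1 of tRNA-Glu, and the 6 tRNA-Val rows have nearly the same counts. In no row of the 61 did the groups stand apart without overlap, against 0.814% of all rows. DESeq2 called 1 row, or 0.117% of those it adjusted, namely AI506816, which is no tRNA and was named after its value was seen.

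The count of 11 hung on the scaling, the set of libraries and single libraries. It was 5 of 61 under RLE size factors (32 of all 860 rows), 1 of 60 with scaling by totals (28 of 852), 0 of 61 in replicate numbers 1 to 3 alone (54 of 850) and 20 of 63 in numbers 4 to 6 alone (48 of 898). With single libraries left out it ran from 1 to 13. It was 1 without Control 2 (33 of all 876 rows), Control 4 (25 of 870) or Control 6 (26 of 883), 2 without cKO 2 (28 of 874) and 4 without cKO 5 (35 of 874). It was 5 without Control 5 (43 of 877), cKO 3 (34 of 871) or cKO 6 (42 of 868), and 6 without cKO 4 (65 of 876). It was 8 without Control 3 (46 of 870), 9 without Control 1 (34 of 877) and 13 without cKO 1 (71 of 881). Adjusted p values of the 61 rows ran from 0.718 to 0.997 in edgeR with all libraries.

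The fitted levels were mostly higher in cKO. A higher fitted level was found for 59 of the 61 rows, against 57.3% of all rows, and the median log2 fold change was 0.29, against 0.05 over all rows. The other tRNAs had a like pattern, with 143 of 159 tested rows higher and a median of 0.34, and no difference between them and the 6 amino acids was tested. With libraries scaled by the totals of the miRNA and small RNA tables the median of all rows moved from 0.05 to -0.08. Relative to all rows the median of the 61 was 0.24 as fitted and 0.23 under that scaling, where 49 of 60 rows were higher and 42.1% of all.

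That direction was not shared by both sets of replicate numbers. The labels number the libraries 1 to 6 in each group and name no batch. With numbers 1 to 3 alone 29 of 61 rows were higher, with a median of -0.01, and with numbers 4 to 6 alone 60 of 63, with a median of 0.41. Leaving out cKO 5 lowered the count to 45 of 62, and the median relative to all rows to 0.08. Without Control 2 that relative median was also 0.08, with 55 of 62 rows higher.

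Red blood cell miRNAs had higher fitted levels in cKO beside these tRNAs. All 4 tested ones had a higher fitted level (49.2% of all 494 tested miRNAs), with a median of 0.30, and none passed an adjusted p of 0.05 (edgeR), against 0.202% of all miRNAs. At an unadjusted p under 0.05 miR-451 alone was past, against 4.25% of all. Their log2 fold changes were 0.44 ± 0.17 for miR-451, 0.16 ± 0.38 for miR-486, 0.45 ± 0.30 for miR-486* and 0.15 ± 0.27 for miR-144* (SE). Their summed level was 3925 to 17021 CPM over the Control libraries and 6180 to 17191 over those of cKO. Haemoglobin genes had 43 reads in Control and 68 in cKO, with a median summed level of 3.30 and 3.25 CPM. The part of blood in the tRNA values was not tested.

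**Figure D2:**
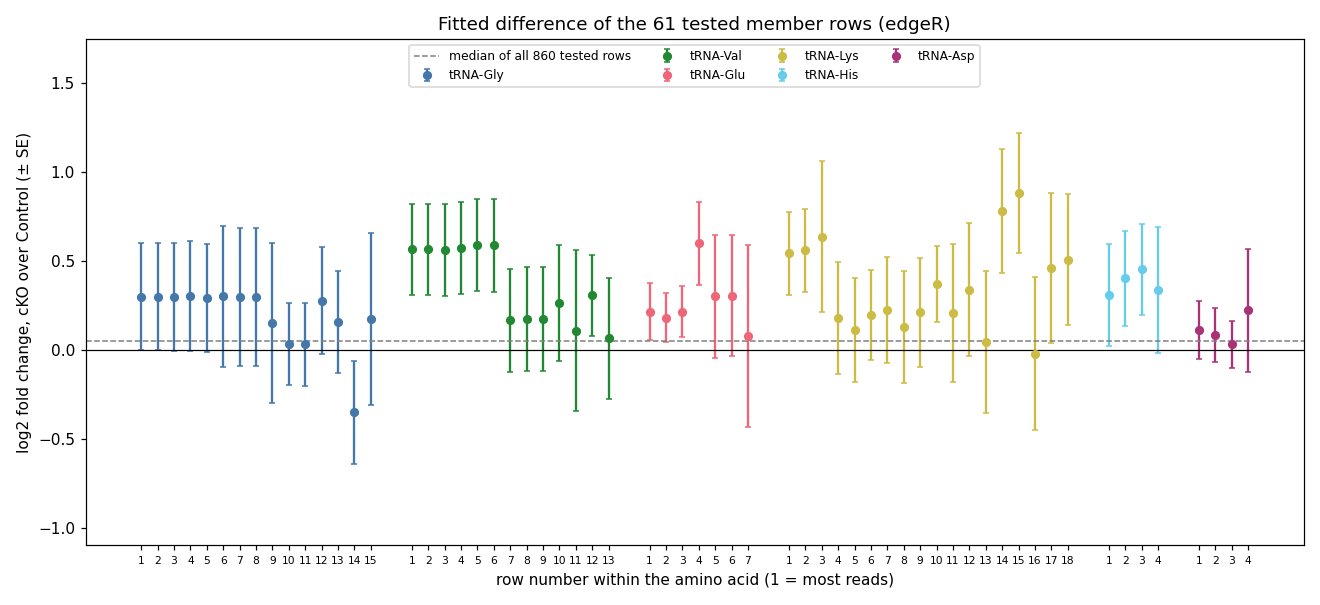
Points give the log2 fold change of cKO over Control (y axis, fitted by edgeR) and bars the SE for each of the 61 tested rows, ordered within an amino acid by total reads (x axis). All but 2 points lie above 0, Gly-14 and Lys-16 excepted, and the dashed line marks the median of all 860 tested rows at 0.05.

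In tRNA-Gly the row with most reads, Gly-1, ranked 7 in the whole table by total reads. Its level, in CPM (read counts normalised to the library total, here scaled by TMM), was lowest at 9688, median 18269.7 and highest at 29077 in Control, and 13055, 25033 and 31073 in cKO. The groups overlapped over most of their range, with Control 5 above 5 of the 6 cKO libraries. Means were 18177 ± 7703 and 22356 ± 7515 CPM (SD, n = 6 each), with a fitted log2 fold change of 0.30 ± 0.30 (SE, edgeR adjusted p = 0.893). It was 0.14 without cKO 5, 0.16 without Control 1, 0.17 without Control 2 and 0.48 without Control 5.

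Apart from Gly-14, fitted differences of the tRNA-Gly copies overlapped within their errors. Gly-1 to Gly-8 had log2 fold changes of 0.29 to 0.30, while Gly-10 and Gly-11, both 72 bases long, had 0.03 with SEs of 0.23. Gly-14, of 75 bases and with 146 reads in all, had the smallest p of the tRNA-Gly rows. Its level was 4.77 ± 0.924 and 3.64 ± 1.46 CPM in Control and cKO (SD, n = 6 each), with a fitted log2 fold change of -0.35 ± 0.29 (SE, edgeR adjusted p = 0.893). No difference between these copies was tested.

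Within a library the kinds of tRNA-Gly copy went apart. Gly-10, as a percentage of the reads of Gly-1, ran from 2.93% in Control 6 to 18.7% in Control 2, and was 9.72 ± 6.54% in Control and 7.54 ± 4.21% in cKO (SD, n = 6 each). Numbers 1 to 3 had 4.67% to 18.7%, and numbers 4 to 6 had 2.93% to 6.81%. This ratio needs no scaling of libraries, and it moved with the replicate numbers in both groups, cKO 2 excepted, which lay with numbers 4 to 6.

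Mean levels differed between the same sets of numbers, but single libraries overlapped. Gly-1 averaged 14554 CPM over numbers 1 to 3 and 25979 CPM over numbers 4 to 6, whereas Gly-10 averaged 1580.3 and 1254 CPM. In cKO 2 Gly-1 was at 24811 CPM, above Control 4 and Control 6. Gly-10 ran from 1159 to 1850 CPM in numbers 1 to 3 and from 579 to 1625 CPM in numbers 4 to 6. Gly-9, also 72 bases long and picked after its values were seen, went the way of Gly-1, with all libraries of numbers 4 to 6 at 1075 CPM or more and all of numbers 1 to 3 at 1035 CPM or less. The mean level in numbers 4 to 6 over that in numbers 1 to 3 was a ratio of 1.79 for Gly-1, 2.78 for Gly-9 and 0.793 for Gly-10. These ratios are a description of the libraries, with no test.

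tRNA-Glu was the steadiest of the 3 tRNAs with most reads. The coefficient of variation over the 12 libraries was 19.8% for Glu-1, against 37.4% for Gly-1 and 37.6% for Val-1. Glu-1 had a lowest level of 6468 CPM, a median of 8064 and a highest of 8852 in Control, and 6937, 8443 and 12247 in cKO. Of the cKO libraries 3 lay within the Control range, and cKO 3, cKO 5 and cKO 6 lay above it. The means of 7723 ± 992 and 8955 ± 2026 CPM (SD, n = 6 each) corresponded to a fitted log2 fold change of 0.21 ± 0.16 (SE, edgeR adjusted p = 0.893). In numbers 1 to 3 alone it was -0.01, without cKO 5 it was 0.065, and without Control 4 it was 0.12. Glu-2 and Glu-3 had 0.18 and 0.22.

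Glu-4, a row of 1 copy on chromosome 12, differed from the other tRNA-Glu rows with many reads. Its levels were 1009, 1632 and 1912 CPM (lowest, median, highest) in Control and 1509.5, 2046 and 4203 CPM in cKO. The highest value was that of cKO 2, and the next was 2159 CPM in cKO 6. The log2 fold change was 0.60 ± 0.24 (SE, n = 6 each, edgeR adjusted p = 0.718), and 0.34 without cKO 2. In cKO 2 the reads of Glu-4 came to 57.6% of those of Glu-1, against 15.6% to 24.8% in the other 11 libraries.

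tRNA-Val and tRNA-Lys had the largest fitted differences among the 6 rows with most reads in the fit of all libraries, where they differed by far less than their errors. In numbers 4 to 6 alone that of His-1 was larger. Val-1 stood at 4233, 7524 and 10143.5 CPM (lowest, median, highest) in Control and at 6979, 10188 and 17056 CPM in cKO. Control 2, Control 5 and Control 6 lay below all cKO libraries, and Control 1, Control 3 and Control 4 lay among them. Means were 7296 ± 2623 and 10798 ± 3339 CPM (SD, n = 6 each), with a fitted log2 fold change of 0.57 ± 0.26 (SE, edgeR adjusted p = 0.719, unadjusted p = 0.044).

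The fitted difference of Val-1 was 0.52 in replicate numbers 1 to 3 alone and 0.58 in numbers 4 to 6 alone. In the first set cKO 2 stood apart at 17056 CPM, while cKO 1 and cKO 3 were at 6979 and 10230.0 CPM beside 4233 to 10143.5 CPM in Control 1 to 3. Without cKO 2 the difference over the remaining libraries was 0.38. Val-1 to Val-6, which have nearly the same counts, had log2 fold changes of 0.56 to 0.59. Val-2, Val-4, Val-5 and Val-6 were among the 10 rows with the smallest p of the 61, with adjusted p values of 0.718 to 0.719.

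A second kind of tRNA-Val copy had smaller values. Val-7 to Val-9, all on chromosome 13, had log2 fold changes of 0.17 with SEs of 0.29, and unadjusted p values of 0.563 to 0.575. The reads of Val-7, picked after its values were seen, were 7.09 ± 1.09% of those of Val-1 in Control and 5.44 ± 1.77% in cKO (SD, n = 6 each). The cKO libraries 1 to 3 had 3.67% to 4.23%, below the other 9 libraries at 5.66% or more. No difference between Val-1 and Val-7 was tested.

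**Figure D3:**
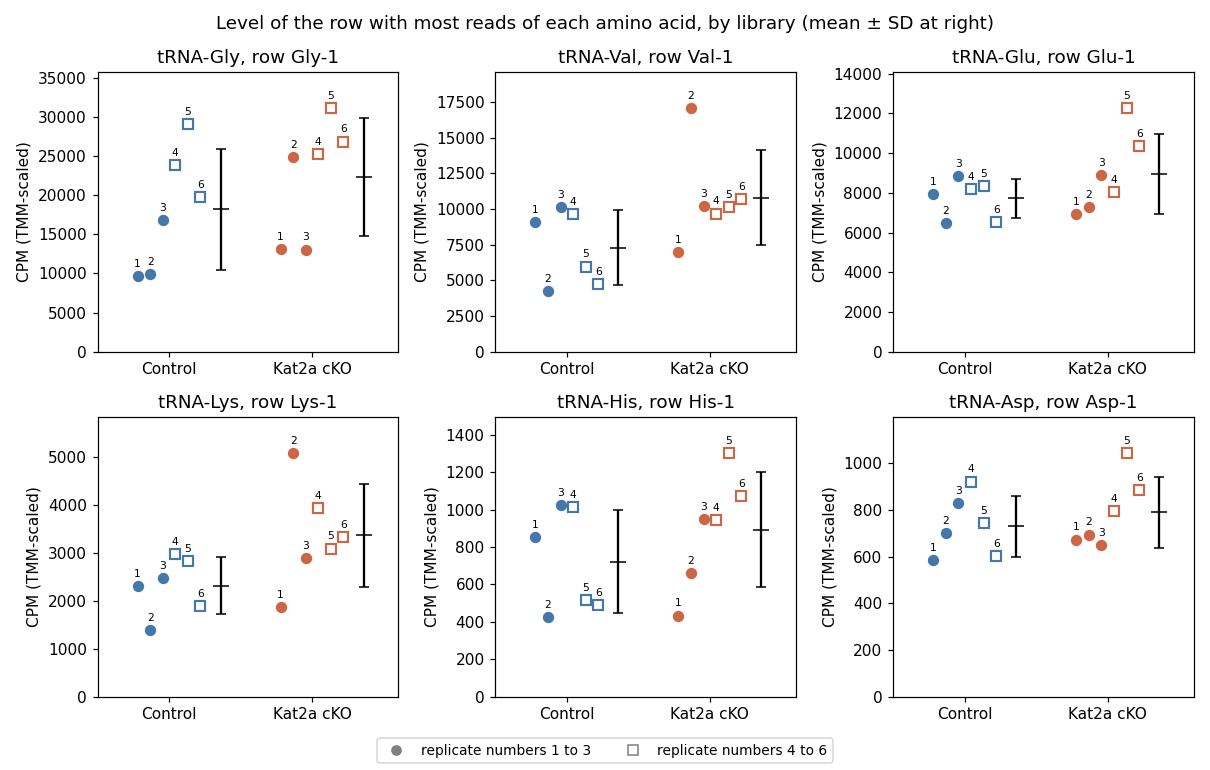
Each panel plots the level in CPM (y axis, TMM-scaled) of the row with most reads of 1 amino acid, by library, with its replicate number above the point, circles for numbers 1 to 3, squares for 4 to 6, and the mean ± SD of each group (n = 6) at its right. The groups overlap in all 6 panels, and cKO 2 is highest for Val-1 at 17056 CPM and for Lys-1 at 5079 CPM.

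tRNA-Lys resembled tRNA-Val in size. Lys-1 lay at 1388, 2389 and 2967 CPM (lowest, median, highest) in Control and at 1873, 3206 and 5079 CPM in cKO. The values overlapped through cKO 1, which was below 5 Control libraries, and cKO 3, which was below Control 4. The means of 2310.0 ± 593 and 3367 ± 1076 CPM (SD, n = 6 each) corresponded to a fitted log2 fold change of 0.54 ± 0.23 (SE, edgeR adjusted p = 0.718, unadjusted p = 0.035). It was 0.39 without cKO 2.

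Lys-2, with nearly the counts of Lys-1, had a log2 fold change of 0.56, and Lys-4 to Lys-9 had 0.11 to 0.23. Lys-15, a single copy on chromosome X with 240 reads in all, had the smallest p of the 61 rows. It stood at 4.26 ± 2.22 and 8.06 ± 2.18 CPM in Control and cKO (SD, n = 6 each), with a fitted log2 fold change of 0.88 ± 0.34 (SE, edgeR adjusted p = 0.718), and all 6 cKO libraries were above the Control mean. Lys-14, a rare copy on chromosome 16, had 0.78 ± 0.35 (adjusted p = 0.718). At 240 and 333 reads both rest on few reads per library.

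Lys-3, picked after its values were seen, varied most of the 61 rows among the cKO libraries, with a coefficient of variation of 75.5%. Its level was 230 CPM in cKO 1 and 1355 CPM in cKO 4, and its reads were 6.26% of those of Lys-1 in cKO 2 and 34.5% in cKO 5. In Control the ratio was 17.3 ± 3.56% and in cKO 18.7 ± 12.5% (SD, n = 6 each). The log2 fold change of Lys-3 was 0.64 ± 0.42 (SE, edgeR adjusted p = 0.893).

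tRNA-His, at a far lower level, had a fitted difference close to that of tRNA-Gly. His-1 was at 425, 686 and 1026 CPM (lowest, median, highest) in Control and at 433, 944 and 1301 CPM in cKO, and the groups overlapped nearly throughout. The means were 721 ± 275 and 892 ± 307 CPM (SD, n = 6 each), with a fitted log2 fold change of 0.31 ± 0.29 (SE, edgeR adjusted p = 0.893). It had the opposite sign, -0.22, in numbers 1 to 3 alone, was 0.70 in numbers 4 to 6 alone, 0.10 without cKO 5 and 0.19 without Control 2. His-3, with the smallest p of the tRNA-His rows, had 0.45 ± 0.26 (adjusted p = 0.893).

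tRNA-Asp had the smallest fitted difference of the 6 rows with most reads in the fit of all libraries. Asp-1, with 13 identical copies, lay at 585, 722 and 922 CPM (lowest, median, highest) in Control and at 648, 745 and 1043 CPM in cKO. Only cKO 5 was above all Control libraries. The means were 730.4 ± 130.4 and 789.8 ± 152 CPM (SD, n = 6 each), with a fitted log2 fold change of 0.11 ± 0.16 (SE, edgeR adjusted p = 0.951). With scaling by totals it was -0.0019. Asp-3, picked after its values were seen, had the steadiest level of the 61 rows over the 12 libraries, with a coefficient of variation of 9.69%, against 37.4% for Gly-1.

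**Figure D4:**
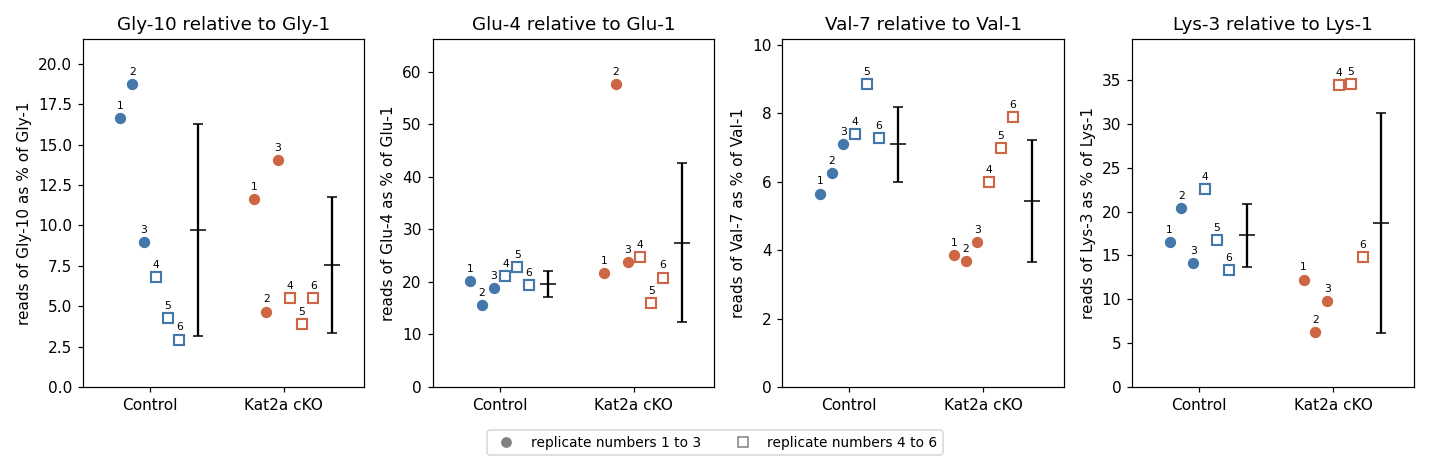
Each panel plots, by library, the reads of 1 row as a percentage of the reads of the row with most reads of the same amino acid (y axis), with the replicate number above each point and the mean ± SD of each group (n = 6) at its right. Gly-10 spans 2.93% to 18.7% of Gly-1 over the Control libraries, Glu-4 in cKO 2 stands at 57.6% of Glu-1, and Lys-3 reaches 34.5% of Lys-1 in cKO 5.

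Over all 61 rows the highest library was most often cKO 5, in 25 rows, then cKO 6 in 12 and cKO 2 in 9. The lowest was Control 2 in 22 rows, cKO 1 in 19 and Control 1 in 11. Control 2 and cKO 1 are also the libraries with the fewest reads in the table. Likewise cKO 5 and cKO 6 are those with the most, at 5726590 and 4344112 in distinct rows. The part of depth in these levels was not tested.

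With the distinct rows of each amino acid summed, no tRNA passed either. In that fit of 661 features (edgeR) 0 of the 6 passed an adjusted p of 0.05, with 0% of all features called, and 0 of the 6 had an unadjusted p under 0.05, against 2.12% of all. The log2 fold changes were 0.47 ± 0.27 for tRNA-Val, 0.40 ± 0.25 for tRNA-Lys, 0.31 ± 0.30 for tRNA-His, 0.21 ± 0.37 for tRNA-Gly, 0.18 ± 0.18 for tRNA-Glu and 0.03 ± 0.18 for tRNA-Asp (SE). The adjusted p was 0.905 for tRNA-Val and tRNA-Lys. All 21 tRNA names had a higher fitted level in cKO, against 36.6% of all features, whose median was -0.08. That count was 12 of 21 in numbers 1 to 3 alone, 14 without cKO 5, 16 without Control 1 and 17 without cKO 4. DESeq2 called 2 features (0.303%), AI506816 and the snoRNA Snord93, named after their values were seen.

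Summed levels ran from 60177 CPM in Control 1 to 243196 CPM in cKO 5 for tRNA-Gly, and from 22177 CPM in Control 2 to 94287 CPM in cKO 2 for tRNA-Val. A read assigned to several rows enters such a sum once per row. Counting each tRNA by its row with most reads, tRNA-Val had a log2 fold change of 0.58 ± 0.25 and tRNA-Lys 0.56 ± 0.23, with adjusted p values of 0.918 (SE, edgeR).

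The unread and rare copies complete the set. His-5 and the tRNA-Val pair Val-16 had no read in any library, which allows up to 0.0843 CPM each (3 counts over all libraries, counting error only). Lys-19 had 1 read, Val-15 had 3 and Glu-8 had 5. Gly-16, whose first segment is 38 bases long, and Val-14 had 125 and 133 reads with at most 21 in a library. These 7 rows were not tested.

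Messenger RNAs of the enzymes around these tRNAs were scarcely read in small RNA libraries. Of 23 genes listed for tRNA cleavage and protection 21 had rows in the table of all RNAs, with 365 reads in Control and 429 in cKO, and none passed the filter. The nuclease gene Dicer1 had 63 and 91 reads. The Rnase4 transcript NM_021472 had 48 and 1 reads, 45 of them in 1 library, and NM_201239 had 2 and 54, with 52 in 1 library. Rnase4 is the neighbour of the angiogenin gene Ang. The Ang transcript NM_001161731 had 3 reads in Control and 4 in cKO, and NM_007447 had 0 and 8, with 6 in 1 library.

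Charging enzymes and tRNA transcription gave the same picture. Of 16 synthetase genes of the 6 amino acids 10 had rows and 2 rows were tested, the mitochondrial Hars2 with a log2 fold change of -0.02 ± 0.46 and Eprs, which charges glutamate and proline tRNAs, with 0.10 ± 0.42 (SE, edgeR adjusted p = 0.999 for both). In that fit 0% of 1846 transcript rows passed, 81 (4.39%) had an unadjusted p under 0.05 and DESeq2 called 10. The 22 RNA polymerase III genes had 769 and 664 reads, with none tested, led by Gtf3c3, a TFIIIC subunit gene, with 174 and 95. For the genes that were not tested a difference was not detectable at this depth.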

How the data were processed

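Raw read counts per small RNA and library were deposited by the authors in 3 tables, of small non-coding RNAs, miRNAs and all RNAs. Per the submitters' processing notes CASAVA was used, with no version given. The aligner, annotation, genome build, strand setting and treatment of reads with several matches are not given in the sources used here. Libraries of the table of all RNAs were mapped to groups only, since its run numbers match no title.

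Rows with the same class, name and counts in all 12 libraries were kept once. The whole table was fitted by edgeR 4.0.16 in R 4.3.3 (filterByExpr, TMM, quasi-likelihood test on group, two-sided, Benjamini-Hochberg adjustment over all rows tested, threshold 0.05), and again with distinct tRNA rows summed per amino acid. The script was tested on simulated data. Alternatives were DESeq2 1.42.0, RLE factors, scaling by totals, other filters, a robust fit, replicate number as a block or in sets, single libraries left out, and all deposited rows.

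Named were, per amino acid, the row with most reads and that with the smallest p, and the 10 rows with the smallest p over all; of gene lists the rows with most reads; others are marked as picked later. A result that the rule takes is not reported here. Lists of other cell types are given in the closing section. The members and lists were chosen with earlier results of these data known. PCR reads carry no molecular identifiers here.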

Additional observations from a re-analysis of the deposited data

Results flagged for a closer look

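A library far from the other 5 of its group was looked for in 48 groups of 6 values, and 7 were found. At 1 in 20 chance gives 2.4 for independent groups. These groups are not independent, since several rows have nearly the same counts, so the 7 cannot be read as an excess. In cKO the library cKO 2 was highest for Glu-4, at 4203 CPM with the next at 2159 (gap 0.759 of the group's range). It was also highest for 5 tRNA-Val rows that have nearly the same counts: Val-1 (gap 0.631), Val-2 (0.631), Val-4 (0.634), Val-5 (0.666) and Val-6 (0.659). In Val-1 the level was 17056 CPM with the next at 10699. The library cKO 5 was highest for Lys-14, at 17.9 CPM with the next at 11.5 (gap 0.664).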

How the results depend on the processing

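No row of the 6 tRNAs and no amino acid passed an adjusted p of 0.05 under any alternative run. Of 352 pairs of a named row and an alternative 347 kept the direction. The smallest adjusted p among the pairs was 0.540 (edgeR), so none came near the threshold. All alternatives reuse these libraries, most of the 16 named rows were chosen for a small p, and several have nearly the same counts. The pairs are therefore no separate support for a direction. DESeq2 called 1 row of the whole table, 2 features of the fit by amino acid, 10 transcript rows of the table of all RNAs and 2 miRNAs, where edgeR called 0, 0, 0 and 1. Of the 61 rows 29 were higher in cKO with numbers 1 to 3 alone, where His-1 (-0.22), Asp-1 (-0.058), Glu-1 (-0.015), and the sums of tRNA-His (-0.092) and tRNA-Asp (-0.0097) had the opposite sign. With scaling by totals the opposite sign was found for Asp-1 (-0.0019) and the sum of tRNA-Asp (-0.023). The cause was not tested.

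Leaving out single libraries gave 45 to 60 rows higher in cKO and 0 calls throughout. The log2 fold change was -0.015 to 0.15 for Asp-1, its lowest without cKO 5, and for sums -0.083 to 0.11 for tRNA-Asp (-0.065 without Control 1, -0.083 without cKO 5 and -0.033 without cKO 6), 0.05 to 0.24 for tRNA-Glu, 0.04 to 0.42 for tRNA-Gly, 0.12 to 0.45 for tRNA-His, 0.33 to 0.52 for tRNA-Lys and 0.32 to 0.61 for tRNA-Val. Glu-4 ran from 0.34 to 0.69, Val-1 from 0.38 to 0.65, Lys-1 from 0.39 to 0.66, Gly-1 from 0.14 to 0.48, Glu-1 from 0.065 to 0.27 and His-1 from 0.10 to 0.44.

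With the replicate number as a block edgeR called 0 rows, 58 of 61 rows were higher, 2 of 61 had an unadjusted p under 0.05 (68 of all 860 rows), and the smallest adjusted p of the 6 sums was 0.768. Same-numbered libraries had correlations of deviations of 0.23, 0.13, -0.07, 0.31, 0.20 and -0.14 over the rows of the table, and of 0.0096, -0.083, 0.38, 0.43, 0.46 and 0.042 over the 61 rows. Since not every one was over 0.1, the numbers were not taken as pairs. An alternative without pseudogene rows was not run, since the row names carry no such mark. Depth limits the rare copies most, and near-identical copies cannot be told apart.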

Other observations

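Lists of other cell types gave these values beside the tRNAs, and none of their members passed an adjusted p of 0.05 (edgeR). The neuron miRNAs had 3 members higher and 10 lower in cKO, with a median log2 fold change of -0.03 and a summed level of 52589 to 84207 CPM in Control and 58209 to 71607 CPM in cKO. The oligodendrocyte miRNAs had 1 higher and 4 lower (median -0.24), the vascular miRNAs 4 higher and 2 lower (0.12), and the microglia and leukocyte miRNAs 2 higher and 1 lower (0.14). Of gene lists, oligodendrocyte genes had 288 reads in Control and 413 in cKO, and astrocyte genes 4487 and 1957. Choroid plexus genes had 904 and 1059, vascular genes 95 and 71, and microglia genes 24 and 36. In this order of lists, median summed levels in CPM were 23.7 and 26.8, 148 and 116, 39.9 and 32.9, 4.55 and 3.99, and 1.78 and 2.05. Of the astrocyte reads 2897 in Control and 23 in cKO belonged to Gja1, with 1666 of them in 1 Control library. Gja1 was not tested, and of the 3 tested astrocyte rows 2 were higher and 1 lower in cKO.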
